A study of Homo sapiens with 4 samples.

Results

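Alanine tRNAs were represented by 3 of the 48 tRNA references in the base-calling error sheets: Ala-CGC-2-1, Ala-TGC-3-1 and Ala-AGC-8-2, each named by its anticodon and gene number. The members were taken by name, and all their nucleotides with a canonical tRNA number were used, 226 of the 3621 numbered positions in the sheets. The set was singled out because earlier results of these libraries showed changes in Ala-CGC-2-1 and Ala-TGC-3-1 and none in Ala-AGC-8-2, so values of TRMT1L KO against WT in these references are given as a description, with no p-value. HCT116 is an established human colorectal carcinoma line. The groups were HCT116 cells lacking TRMT1L (TRMT1L KO, 2 libraries) and unmodified HCT116 cells (WT, 2 libraries), grown in the same medium with no treatment named. The labels do not say how the knockout was made, whether it is 1 clone, or whether replicate libraries stem from separate cultures, so all spreads and p-values reflect only the variation between libraries, which may be technical. TRMT1L itself was not measured here, so the loss of the enzyme could not be checked in these libraries.

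A tRNA folds into an acceptor stem, a D arm, an anticodon arm, a short variable region and a T arm, and many of its bases are modified after transcription. Alanine tRNAs read the alanine codons. In the isoacceptor with the AGC anticodon the first anticodon base, position 34, is an adenosine that ADAT2 and ADAT3 deaminate to inosine, while the CGC and TGC isoacceptors start their anticodons with a cytidine and a uridine. At position 37, beside the anticodon, alanine tRNA carries an adenosine that ADAT1 deaminates to inosine and TRMT5 then methylates. TRMT1 dimethylates guanosine 26 of many tRNAs, and TRMT1L is its paralogue, to which the series assigns dimethylguanosine at position 27 of tyrosine tRNA. The D loop commonly holds dihydrouridines made by the DUS enzymes, and position 20 is one of their sites. In Nano-tRNAseq the native tRNA is read in a nanopore, and a modified base can change how often the base caller reads a wrong base (mismatch), skips one (deletion) or adds one (insertion). The rates are fractions of reads per nucleotide, written here as percentages, and their sum is called the summed error. An error rate does not name the modification, and a complete change in a few molecules cannot be told apart from a partial change in all of them.

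The 3 references share the same frame except for the D loop. Ala-AGC-8-2 has 76 nucleotides and includes position 17, while Ala-CGC-2-1 and Ala-TGC-3-1 have 75 and lack it, so position 20 is nucleotide 20 in Ala-AGC-8-2 and nucleotide 19 in Ala-CGC-2-1 and Ala-TGC-3-1. None of them has positions 17a, 20a or 20b. All 3 names matched a RefSeq tRNA gene (TRA-CGC2-1, TRA-TGC3-1 and TRA-AGC8-2). The sheets hold no bases, so changes are given by position alone. Over all references the summed error averaged 31.7% and 31.8% in the TRMT1L KO libraries and 30.9% and 30.9% in the WT libraries. It averaged 33.7% and 32.96% in the TRMT1L KO libraries and 32.2% and 32.4% in the WT libraries for Ala-CGC-2-1. For Ala-TGC-3-1 the means were 33.2% and 33.6% in the TRMT1L KO libraries and 31.9% and 32.8% in the WT libraries, and for Ala-AGC-8-2 they were 32.2% and 32.3% in the TRMT1L KO libraries and 31.9% and 31.3% in the WT libraries. In each of these references both TRMT1L KO means were above both WT means, as they were over all references. The SD between 2 libraries of a genotype had a median of 1.11 points in TRMT1L KO and 1.54 in WT for Ala-CGC-2-1, 1.19 and 1.49 for Ala-TGC-3-1, and 0.731 and 1.24 for Ala-AGC-8-2. Read depth is unknown, so no counting interval is given.

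In the D arm of Ala-CGC-2-1 and Ala-TGC-3-1 the summed error was lower in TRMT1L KO at positions 20 and 22, and at position 26, between the D and anticodon stems, it was higher in Ala-CGC-2-1. Ala-AGC-8-2 had no position past the test for any kind of error. A position was called where the limma test of TRMT1L KO against WT, fitted on all 3621 numbered positions, gave a Benjamini-Hochberg adjusted p under 0.05. For the summed error 4 alanine positions were called lower and 1 higher, where 0.387% and 0.221% of all positions were called. For mismatches 4 were called lower and 0 higher (background 0.331% and 0.221%), for deletions 4 lower and 4 higher (background 0.608% and 0.580%), and for insertions 0 (background 0.0276% and 0.0552%). The libraries of the genotypes did not overlap, with TRMT1L KO lower, at 23 of 226 alanine positions for the summed error (background 7.93%) and, with TRMT1L KO higher, at 87 (background 30.9%). Since the members were chosen by this contrast, nothing is read from these counts.

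**Figure D1:**
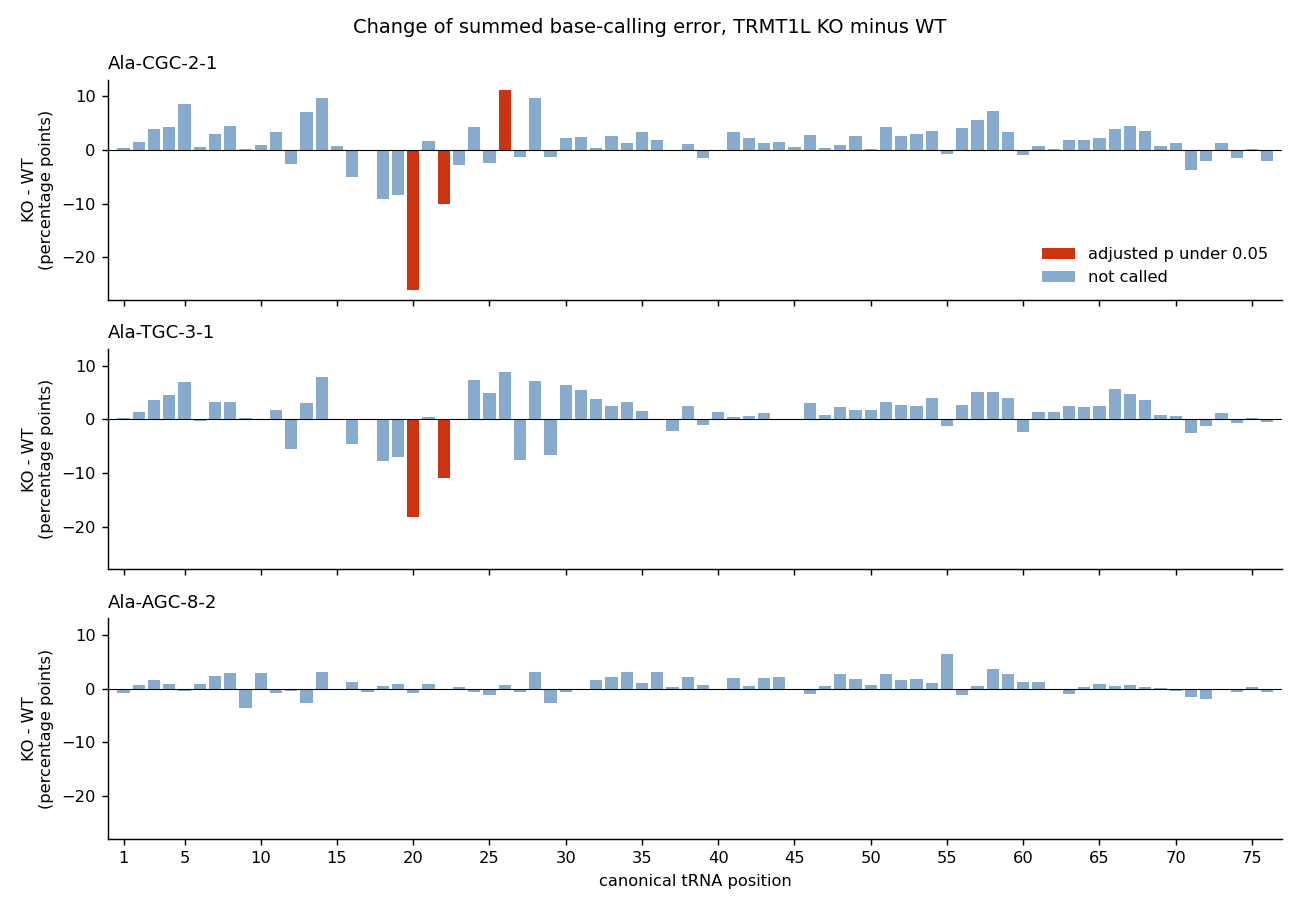
Difference of the summed error, TRMT1L KO minus WT in percentage points, at each canonical position (horizontal axis) of the 3 alanine references; bars are differences of the means of 2 libraries and red marks called positions. Position 20 reaches -26.1 points for Ala-CGC-2-1 and -18.3 for Ala-TGC-3-1, while Ala-AGC-8-2 stays between -3.71 and 6.50 points along its length.

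Position 20 fell most. In Ala-CGC-2-1 its summed error was 25.2% and 22.01% in the TRMT1L KO libraries, against 44.3% and 55.2% in the WT libraries. The means were 23.6% ± 2.28 in TRMT1L KO and 49.7% ± 7.75 in WT (SD, n = 2 each), a difference of -26.1 points. In Ala-TGC-3-1 it was 22.6% and 22.3% in the TRMT1L KO libraries, against 35.4% and 45.98% in the WT libraries, with means of 22.4% ± 0.242 in TRMT1L KO and 40.7% ± 7.45 in WT (SD, n = 2 each) and a difference of -18.3 points. The libraries of the genotypes did not overlap in either reference, and the TRMT1L KO libraries lay close together while WT replicate 2 was well above WT replicate 1. In Ala-AGC-8-2 the values were 51.6% and 48.8% in the TRMT1L KO libraries, against 48.8% and 53.3% in the WT libraries, so the genotypes overlapped, with a difference of -0.807 points. The WT means of Ala-CGC-2-1 and Ala-AGC-8-2 were thus close (49.7% and 51.01%), while that of Ala-TGC-3-1 was already lower (40.7%). In TRMT1L KO both Ala-CGC-2-1 and Ala-TGC-3-1 lay well below Ala-AGC-8-2 (23.6% and 22.4%, against 50.2%).

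Both mismatches and deletions contributed at position 20. Mismatches in Ala-CGC-2-1 fell to 12.4% in TRMT1L KO, against 30.1% in WT, a difference of -17.7 points, and deletions to 8.99% in TRMT1L KO, against 16.9% in WT, a difference of -7.91 points. In Ala-TGC-3-1 mismatches were 12.05% in TRMT1L KO and 24.01% in WT (-11.96 points) and deletions 8.15% in TRMT1L KO and 14.2% in WT (-6.01 points). All 4 of these decreases were called, and the libraries did not overlap. Without WT replicate 2 the mismatch decrease of Ala-TGC-3-1 at position 20 no longer passed (-8.46 points), and with a crossed replicate block, which pairs each TRMT1L KO library with the WT library of the other number and was chosen after seeing the data, the deletion decreases of Ala-TGC-3-1 at positions 19 and 20 did not. Insertions at position 20 were low in both genotypes, 2.27% in TRMT1L KO and 2.76% in WT for Ala-CGC-2-1 and 2.24% in TRMT1L KO and 2.54% in WT for Ala-TGC-3-1, with overlapping libraries. In Ala-AGC-8-2 mismatches at position 20 were 29.8% in TRMT1L KO and 29.9% in WT and deletions 18.7% in TRMT1L KO and 19.4% in WT.

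**Figure D2:**
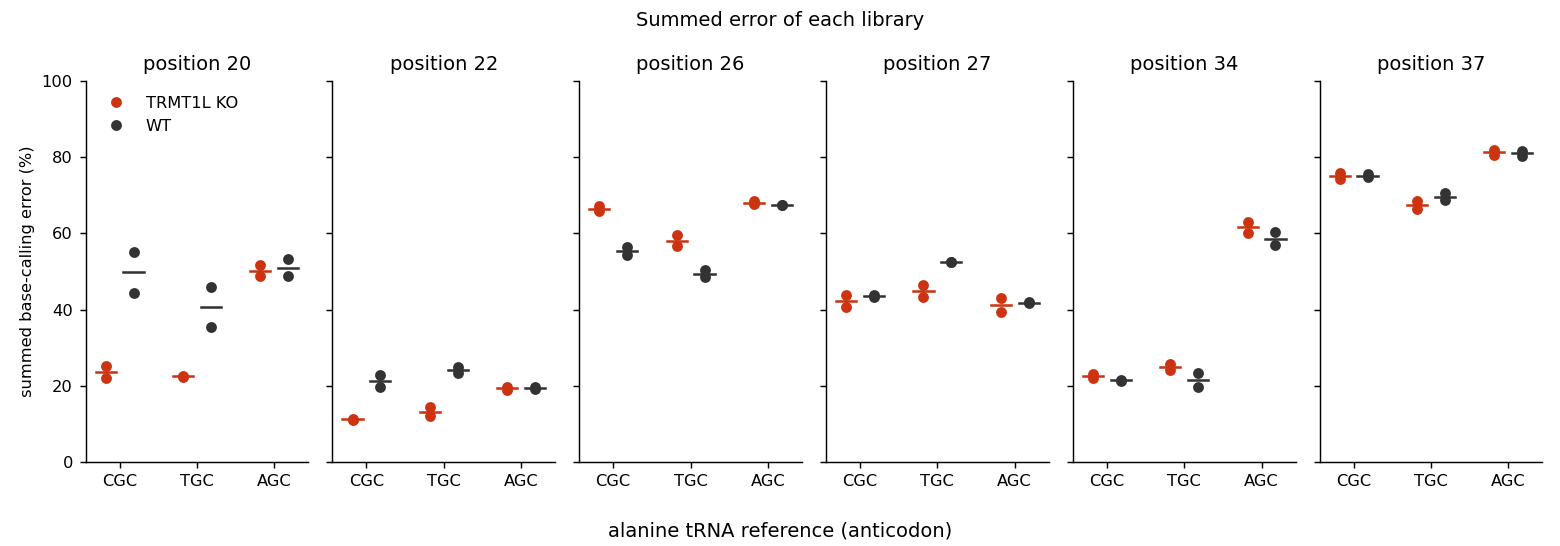
Summed error in percent (vertical axis) of each library at positions 20, 22, 26, 27, 34 and 37 of the 3 alanine references, TRMT1L KO left of WT; points are libraries and lines are means of 2. The TRMT1L KO points of Ala-CGC-2-1 and Ala-TGC-3-1 lie below the WT points at positions 20 and 22 and above them at position 26, and those of Ala-AGC-8-2 differ from WT by at most 2.996 points in the mean at all 6 positions.

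Besides position 20, positions 16 and 19 of the D loop were called for a single kind of error, and no other D-loop position was called in the sum or in any kind. At position 19 deletions fell in Ala-CGC-2-1, with 5.82% and 5.05% in TRMT1L KO, against 11.2% and 12.8% in WT (-6.55 points), and in Ala-TGC-3-1, with 4.65% and 4.73% in TRMT1L KO, against 8.94% and 10.1% in WT (-4.84 points). In Ala-AGC-8-2 deletions at position 19 were 13.8% and 13.6% in TRMT1L KO, against 14.2% and 14.1% in WT. The summed error at position 19 was not called. Its differences, -8.41 points for Ala-CGC-2-1 and -7.03 for Ala-TGC-3-1, were the lowest 2 of the 48 references, the 45 others running from -4.52 to 11.3 points (median 1.30). The set was chosen by this contrast. Ranks among the references, here and at other positions, are therefore a description and lend no weight to a difference that was not called. Position 16, a dihydrouridine site, had fewer mismatches in Ala-CGC-2-1, with 17.8% and 16.3% in TRMT1L KO, against 24.6% and 26.004% in WT (-8.28 points), and this was called. That call was lost without WT replicate 1 (-8.97 points), without WT replicate 2 (-7.59) and without TRMT1L KO replicate 2 (-7.51), with rates left untransformed, and with libraries centred on their median. Mismatches at position 16 were 14.3% and 15.04% in TRMT1L KO, against 20% and 21.4% in WT in Ala-TGC-3-1 (-6.02 points, not called) and 16.8% and 17.4% in TRMT1L KO, against 16.1% and 16.97% in WT in Ala-AGC-8-2 (0.542 points). Insertions at position 16 differed the other way, by 3.98 points for Ala-CGC-2-1 and 2.55 for Ala-TGC-3-1, with no overlap and no call, so the summed error of position 16 differed by only -5.01 and -4.67 points.

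Positions 14, 15, 18 and 21, named after their values were seen, complete the D loop of Ala-CGC-2-1 and Ala-TGC-3-1, and they did not all differ in one direction. At position 14 the summed error was higher in TRMT1L KO, with 46.4% and 40.4% in TRMT1L KO, against 32.6% and 34.8% in WT in Ala-CGC-2-1 (9.66 points) and 41.5% and 39.5% in TRMT1L KO, against 33.8% and 31.3% in WT in Ala-TGC-3-1 (7.92 points), and by 3.09 points in Ala-AGC-8-2. The libraries did not overlap in any of the 3 references, with no call, and most of the difference of Ala-CGC-2-1 and Ala-TGC-3-1 was in mismatches (7.14 and 6.27 points). Position 15 differed by 0.793 points in Ala-CGC-2-1, -0.196 in Ala-TGC-3-1 and -0.0854 in Ala-AGC-8-2, with overlapping libraries in each. At position 18 the summed error was 20.6% and 18.98% in TRMT1L KO, against 27.1% and 30.8% in WT in Ala-CGC-2-1 (-9.21 points) and 18.4% and 20.7% in TRMT1L KO, against 25.96% and 28.9% in WT in Ala-TGC-3-1 (-7.85 points), not called, with 0.555 points in Ala-AGC-8-2. At position 21 mismatches differed by 6.11 points and deletions by -4.51 points in Ala-CGC-2-1, and by 4.15 and -3.73 points in Ala-TGC-3-1. These opposite parts left 1.58 and 0.326 points in the sum, and none was called. Over the D loop as a whole the differences of the summed error ran from -26.1 to 9.66 points in Ala-CGC-2-1 and from -18.3 to 7.92 in Ala-TGC-3-1, and the median difference was -5.01 points over 7 positions in Ala-CGC-2-1, -4.67 over 7 in Ala-TGC-3-1 and 0.686 over 8 in Ala-AGC-8-2, beside 0.434 over the 384 D-loop positions of all references. Where neighbouring bases are alike, the aligner may place a deletion at any of them, so adjacent deletion rates are not separate readings. Whether differences at nearby positions, in any kind of error, stem from a single site or from several was not tested.

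Position 22, the first base of the 3' strand of the D stem, also fell in both references. Its summed error was 11.4% and 10.9% in the TRMT1L KO libraries, against 19.6% and 22.8% in the WT libraries in Ala-CGC-2-1, with means of 11.1% ± 0.328 in TRMT1L KO and 21.2% ± 2.26 in WT (SD, n = 2 each) and a difference of -10.05 points. In Ala-TGC-3-1 it was 11.9% and 14.5% in the TRMT1L KO libraries, against 23.4% and 24.9% in the WT libraries, with means of 13.2% ± 1.80 in TRMT1L KO and 24.2% ± 1.12 in WT (SD, n = 2 each) and a difference of -10.95 points. In Ala-AGC-8-2 it was 18.99% and 19.7% in the TRMT1L KO libraries, against 19.6% and 19.1% in the WT libraries, a difference of -0.0189 points. The genotypes did not overlap in Ala-CGC-2-1 and Ala-TGC-3-1 and overlapped in Ala-AGC-8-2. Mismatches made up the largest part of the decrease in both references that fell, and insertions the next. Insertions held a larger part of the decrease in Ala-CGC-2-1 than in Ala-TGC-3-1, and the calls differed too. Insertions of Ala-TGC-3-1 differed by -2.18 points, not called. In Ala-TGC-3-1 mismatches fell by 7.94 points and were called, though not without WT replicate 2 (-7.46 points). In Ala-CGC-2-1 the differences were -5.06 points in mismatches and -4.26 in insertions, neither of them called, and without insertions the sum no longer passed (-5.78 points). Ala-TGC-3-1 and Ala-CGC-2-1 had the lowest differences of the 48 references at this position. The 45 others ran from -9.95 to 4.57 points (median 1.14).

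**Figure D3:**
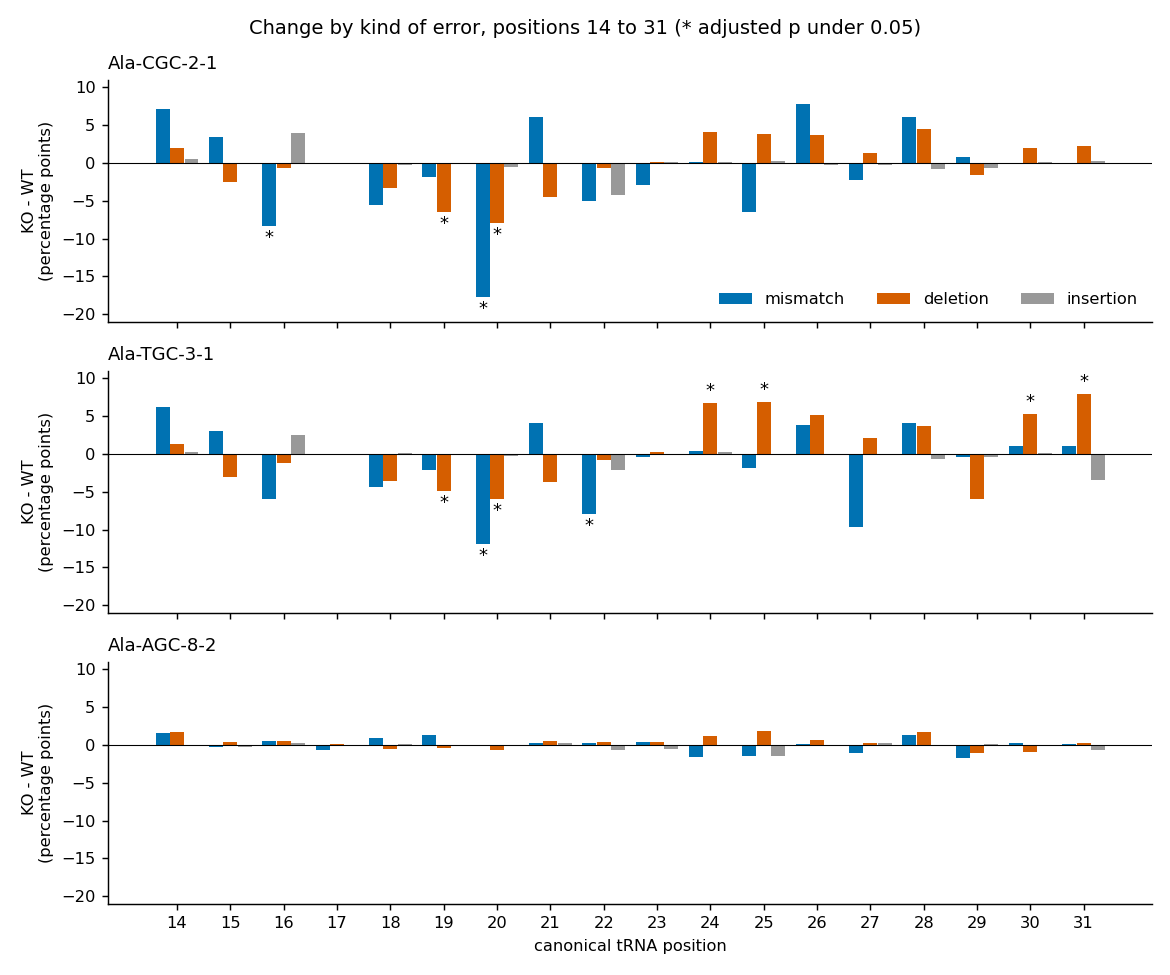
Difference TRMT1L KO minus WT in percentage points for mismatch, deletion and insertion at positions 14 to 31 of the 3 alanine references; bars are differences of means of 2 libraries and stars mark called positions. In Ala-CGC-2-1 and Ala-TGC-3-1 mismatches and deletions are both lower at position 20, move oppositely at position 21, and are both higher at positions 26 and 28.

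Position 26 moved the other way. In Ala-CGC-2-1 its summed error rose and was 67.2% and 65.9% in the TRMT1L KO libraries, against 56.4% and 54.2% in the WT libraries, with means of 66.5% ± 0.906 in TRMT1L KO and 55.3% ± 1.58 in WT (SD, n = 2 each) and a difference of 11.2 points. In Ala-TGC-3-1 it was 59.5% and 56.7% in the TRMT1L KO libraries, against 48.4% and 50.3% in the WT libraries, a difference of 8.74 points that was not called although the libraries did not overlap. In Ala-AGC-8-2 it was 67.7% and 68.4% in the TRMT1L KO libraries, against 67.6% and 67.4% in the WT libraries, a difference of 0.588 points. In Ala-CGC-2-1 the difference was 7.79 points in mismatches and 3.70 in deletions, and in Ala-TGC-3-1 it was 3.76 and 5.15, with no single kind called. The call in Ala-CGC-2-1 was lost with libraries centred on their median (9.93 points), without TRMT1L KO replicate 1 (10.6), without insertions (11.5) and with a replicate block. Of the 48 references, Tyr-GTA-2-1 alone had a higher difference here (18.1 points) than Ala-CGC-2-1 and Ala-TGC-3-1. The 45 references other than alanine had a median of -0.352.

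The 5' strand of the anticodon stem, positions 27 to 31, held further differences, most of them in Ala-TGC-3-1. At position 27 the summed error was 43.2% and 46.5% in the TRMT1L KO libraries, against 52.4% and 52.5% in the WT libraries in Ala-TGC-3-1, a difference of -7.58 points, and mismatches differed by -9.72 points, the lowest of the 48 references. Neither was called. In Ala-CGC-2-1 position 27 had 40.7% and 43.9% in the TRMT1L KO libraries, against 43.3% and 43.8% in the WT libraries (-1.33 points), and in Ala-AGC-8-2 it had 39.3% and 43.03% in the TRMT1L KO libraries, against 41.96% and 41.6% in the WT libraries (-0.602 points), with overlapping libraries in both. Position 28 showed the largest difference of the anticodon stem, 9.61 points in Ala-CGC-2-1, with 51.97% and 52.7% in TRMT1L KO, against 44.9% and 40.5% in WT. Ala-TGC-3-1 followed with 7.07 points and Ala-AGC-8-2 had 3.02. The 2 values of Ala-CGC-2-1 and Ala-TGC-3-1 were the highest of the 48 references, the 45 others running from -3.98 to 6.14 points (median 0.381), and none of these was called.

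Deletions rose at 4 positions of Ala-TGC-3-1 on either side of position 26. At position 24, in the D stem, they were 20.7% and 23.4% in the TRMT1L KO libraries, against 15.9% and 14.8% in the WT libraries (6.77 points), and at position 25 21.2% and 24.01% in the TRMT1L KO libraries, against 15.8% and 15.8% in the WT libraries (6.85 points). In the anticodon stem they were 12.8% and 14.7% in the TRMT1L KO libraries, against 8.71% and 8.25% in the WT libraries at position 30 (5.23 points), and 27.5% and 28.3% in the TRMT1L KO libraries, against 18.8% and 21.2% in the WT libraries at position 31 (7.92 points). The libraries did not overlap at any of the 4. Deletions were not higher along the whole stretch: at position 29, named after its values were seen, they were 17.6% and 20.9% in the TRMT1L KO libraries, against 26.03% and 24.4% in the WT libraries (-5.95 points, and -6.68 in the sum), without overlap and not called, with -1.57 points in Ala-CGC-2-1 and -1.09 in Ala-AGC-8-2. The 4 called positions of Ala-TGC-3-1 had in Ala-CGC-2-1 4.08, 3.77, 2.03 and 2.23 points, all without overlap and not called, and in Ala-AGC-8-2 they had 1.16, 1.80, -0.890 and 0.258. These calls were lost under several settings: with libraries centred on their median or with a crossed replicate block none of the 4 passed, without trend and robust settings only position 31 did, and each was lost when 2 or more of the 4 libraries were left out in turn. They stood beside a general excess of deletions in TRMT1L KO. Deletions were higher in TRMT1L KO without overlap at 60% of positions in Ala-CGC-2-1, 58.7% in Ala-TGC-3-1 and 40.8% in Ala-AGC-8-2, against 35.5% over all references, and mean deletion rates over Ala-TGC-3-1 were 13.4% and 13.8% in the TRMT1L KO libraries and 12.1% and 13.01% in the WT libraries. At position 31 insertions were lower by 3.47 points in Ala-TGC-3-1, not called, so the sum differed by 5.52 points. At position 25 of Ala-CGC-2-1 mismatches differed by -6.55 points and the sum by -2.50, not called.

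At positions 34 and 37 of the anticodon loop the summed error of the genotypes differed by at most 3.28 points. At position 34 the summed error was 23.2% and 22.1% in the TRMT1L KO libraries, against 21.6% and 21.3% in the WT libraries in Ala-CGC-2-1 (1.23 points), 25.6% and 24.1% in the TRMT1L KO libraries, against 19.8% and 23.3% in the WT libraries in Ala-TGC-3-1 (3.28 points), and 63.1% and 60.2% in the TRMT1L KO libraries, against 56.8% and 60.4% in the WT libraries in Ala-AGC-8-2 (2.996 points). At position 37 the differences were -0.0509 points in Ala-CGC-2-1, with 74.3% and 75.97% in TRMT1L KO, against 74.8% and 75.5% in WT, -2.20 points in Ala-TGC-3-1, with 66.5% and 68.5% in TRMT1L KO, against 70.5% and 68.8% in WT, and 0.311 points in Ala-AGC-8-2, with 81.9% and 80.6% in TRMT1L KO, against 80.3% and 81.7% in WT. The libraries did not overlap at position 34 in Ala-CGC-2-1 and Ala-TGC-3-1 and at position 37 in Ala-TGC-3-1, and overlapped in the other cases. At position 37 of Ala-AGC-8-2 the kinds of error differed in opposite directions. Mismatches differed there by 2.48 points, deletions by -1.53 and insertions by -0.638, which left 0.311 in the sum. Neither position was called in any kind of error. Over the 7 positions of the anticodon loop the differences ran from -0.0509 to 3.31 points in Ala-CGC-2-1, -2.20 to 3.68 in Ala-TGC-3-1 and 0.311 to 3.08 in Ala-AGC-8-2. The largest was at position 32 of Ala-TGC-3-1, with 49.5% and 48.6% in TRMT1L KO, against 43.8% and 46.9% in WT.

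Outside positions 16 to 31 no alanine position was called, and most differences were positive, like those of all references. The median difference of the summed error over all positions was 1.30 points in Ala-CGC-2-1, 1.35 in Ala-TGC-3-1, 0.554 in Ala-AGC-8-2 and 0.818 over all references. The largest difference outside positions 16 to 31 was that of position 14 in Ala-CGC-2-1, given above, and position 13 beside it, in the D stem, had 51.5% and 49.1% in TRMT1L KO, against 42.6% and 43.9% in WT in Ala-CGC-2-1 (7.04 points), with 2.98 in Ala-TGC-3-1 and -2.63 in Ala-AGC-8-2. In the acceptor stem the largest was position 5 of Ala-CGC-2-1, with 46.4% and 38.98% in TRMT1L KO, against 33.1% and 35.3% in WT (8.52 points), where Ala-TGC-3-1 had 6.96 and Ala-AGC-8-2 -0.394. Position 8 had a difference of 4.44 points in Ala-CGC-2-1, position 46 of Ala-TGC-3-1, a site of 7-methylguanosine in many tRNAs, 3.02, and position 76 of Ala-CGC-2-1, the terminal adenosine, -2.12. In the T arm of Ala-CGC-2-1 the difference was 4.35 points at position 51 and, at position 58, where TRMT6 and TRMT61A methylate adenosine, 7.26, with 48.3% and 44.2% in TRMT1L KO, against 34.8% and 43.2% in WT. Position 58 differed by 5.0001 points in Ala-TGC-3-1 and 3.63 in Ala-AGC-8-2. The largest difference of Ala-AGC-8-2, named after its value was seen, was at position 55, where most tRNAs carry pseudouridine. It had 64.2% and 62.6% in TRMT1L KO, against 57.5% and 56.2% in WT, a difference of 6.50 points with no overlap and no call, against -0.779 for Ala-CGC-2-1 and -1.32 for Ala-TGC-3-1. Of the sites with a known modification in tRNAs, 1 of 18 was called lower and 1 higher in Ala-CGC-2-1, 1 of 18 lower in Ala-TGC-3-1 and 0 of 19 in Ala-AGC-8-2, beside 8 lower and 3 higher of 894 over all references. Their median difference was 0.651, 1.29 and 1.10 points, beside 0.573 over all references.

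Set beside each other, Ala-CGC-2-1 and Ala-TGC-3-1 had changes of larger size than Ala-AGC-8-2, a property by which the set was chosen. The median absolute difference between genotypes was 2.24 points for Ala-CGC-2-1 and 2.47 for Ala-TGC-3-1, against 0.897 in Ala-AGC-8-2 and 1.35 over all references. The TRMT1L KO minus WT difference of Ala-CGC-2-1 minus that of Ala-AGC-8-2 was -25.3 points at position 20, -10.03 at position 22 and 10.6 at position 26, and for Ala-TGC-3-1 minus Ala-AGC-8-2 it was -17.5, -10.9 and 8.15 points at the same positions. At position 34 these gaps were -1.76 and 0.288 points, and at position 37 they were -0.362 and -2.51 points.

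The references most like each alanine reference were found from the TRMT1L KO minus WT difference of the summed error along the shared positions. All of these differences come from the same 4 libraries, so the correlations are a description. Ala-CGC-2-1 and Ala-TGC-3-1 were each other's closest match, with a Pearson r of 0.893 over 75 positions and 0.854 without position 20. Tyr-GTA-2-1 and Tyr-ATA-1-1, the tyrosine references, came next for both. For Ala-CGC-2-1 r was 0.719 and 0.661, or 0.510 and 0.362 without position 20. For Ala-TGC-3-1 r was 0.706 and 0.589, or 0.565 and 0.361 without it. Ala-AGC-8-2 had no close match: its highest r was 0.299 with Gln-TTG-1-1 over 74 positions, 0.233 with Ala-CGC-2-1 and 0.228 with Pro-TGG-3-3. Reads shared between closely similar references were not assessed, so Ala-CGC-2-1 and Ala-TGC-3-1 may not be separate readings.

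Position 20 was also lower in tyrosine and cysteine tRNA. At positions 26 and 27 the kinds of error ran differently in Tyr-GTA-2-1 than in Ala-CGC-2-1 and Ala-TGC-3-1. At position 20 the difference of -26.1 points for Ala-CGC-2-1 and -18.3 for Ala-TGC-3-1 stood beside -48.3 for Tyr-GTA-2-1, -42.8 for Tyr-ATA-1-1 and -30.98 in Cys-GCA-3-1. At position 22 it was -10.05 and -10.95 points in Ala-CGC-2-1 and Ala-TGC-3-1, beside -9.95 and -7.76 in the tyrosine references and 0.819 in Cys-GCA-3-1. At position 26 Ala-CGC-2-1 had 7.79 points in mismatches and 3.70 in deletions, both positive, whereas Tyr-GTA-2-1 had 53.1 and -35.02, and Tyr-ATA-1-1 had 26.8 and -26.5. At position 27 Ala-TGC-3-1 had -9.72 points in mismatches and 2.09 in deletions, and Tyr-GTA-2-1 had 12.6 and -28.3, with the signs the other way round. Ala-CGC-2-1 had smaller differences at position 27, -2.29 points in mismatches and 1.27 in deletions, with overlapping libraries in the sum. Cys-GCA-3-1 had 1.53 points in the sum at position 26 and 1.47 at position 27. Whether these changes differ between the amino acids was not tested, since the references were picked by them.

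**Figure D4:**
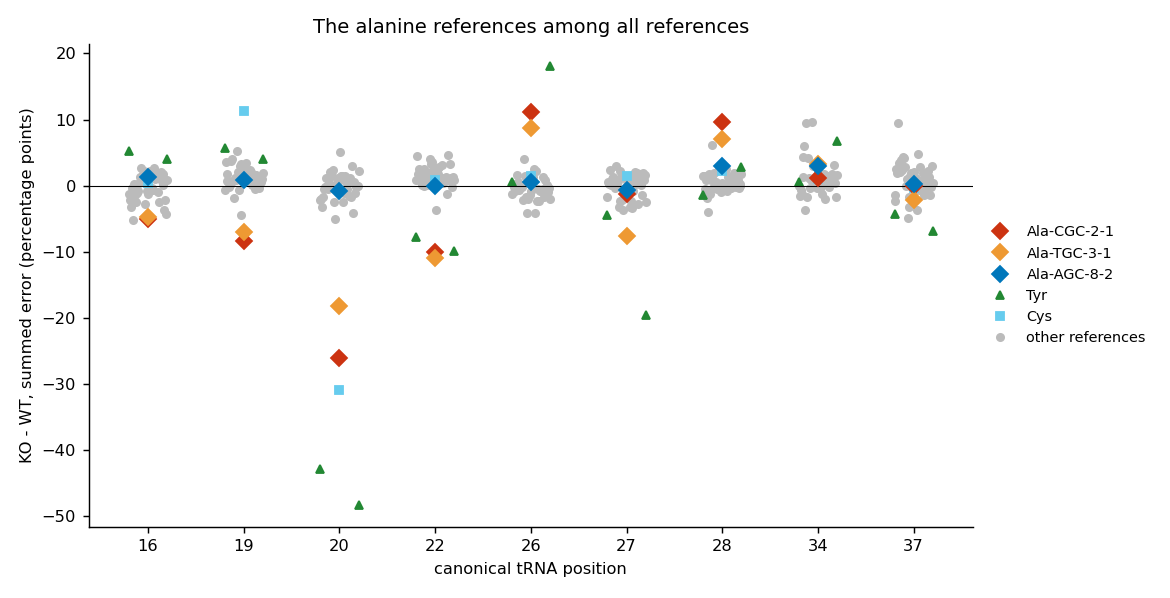
Difference of the summed error, TRMT1L KO minus WT in percentage points, of all 48 references at 9 canonical positions; diamonds are alanine, triangles tyrosine, squares cysteine and grey points the rest. Ala-CGC-2-1 and Ala-TGC-3-1 lie beyond the grey points at positions 19, 20, 22, 26 and 28, and Ala-AGC-8-2 lies among them. At position 28 Ala-TGC-3-1 has 7.07 points, where the references other than alanine reach 6.14.

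The level of error, averaged over all 4 libraries, does not use the contrast of the genotypes and could be tested between the alanine references, within libraries. Ala-CGC-2-1 and Ala-TGC-3-1 had nearly the same profile, with a Pearson r of 0.970 over 75 positions. Both were less like Ala-AGC-8-2, with r of 0.637 and 0.634. These were nonetheless the highest r of Ala-AGC-8-2 with any reference, followed by 0.572 with Ile-AAT-8-1 over 76 positions. The level differed at 63 of 75 shared positions (84%) between Ala-CGC-2-1 and Ala-AGC-8-2, 32 higher and 31 lower in Ala-CGC-2-1, and at 63 (84%) between Ala-TGC-3-1 and Ala-AGC-8-2, 35 higher and 28 lower in Ala-TGC-3-1. Of all positions of all other references set against Ala-AGC-8-2, 90.03% differed, so both pairs were near this background. For the kinds of error this share was 87.8% in mismatches, 87.8% in deletions and 75.9% in insertions. Ala-CGC-2-1 and Ala-TGC-3-1 differed at 34 of 75 (45.3%), where 88.1% of positions of other references differed from Ala-TGC-3-1, or 85.6% in mismatches. The median absolute level difference was 8.87 and 9.72 points against Ala-AGC-8-2 and 2.03 points between Ala-CGC-2-1 and Ala-TGC-3-1. A level depends on the base and its neighbours as well as on modification, and without the bases these cannot be told apart.

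**Figure D5:**
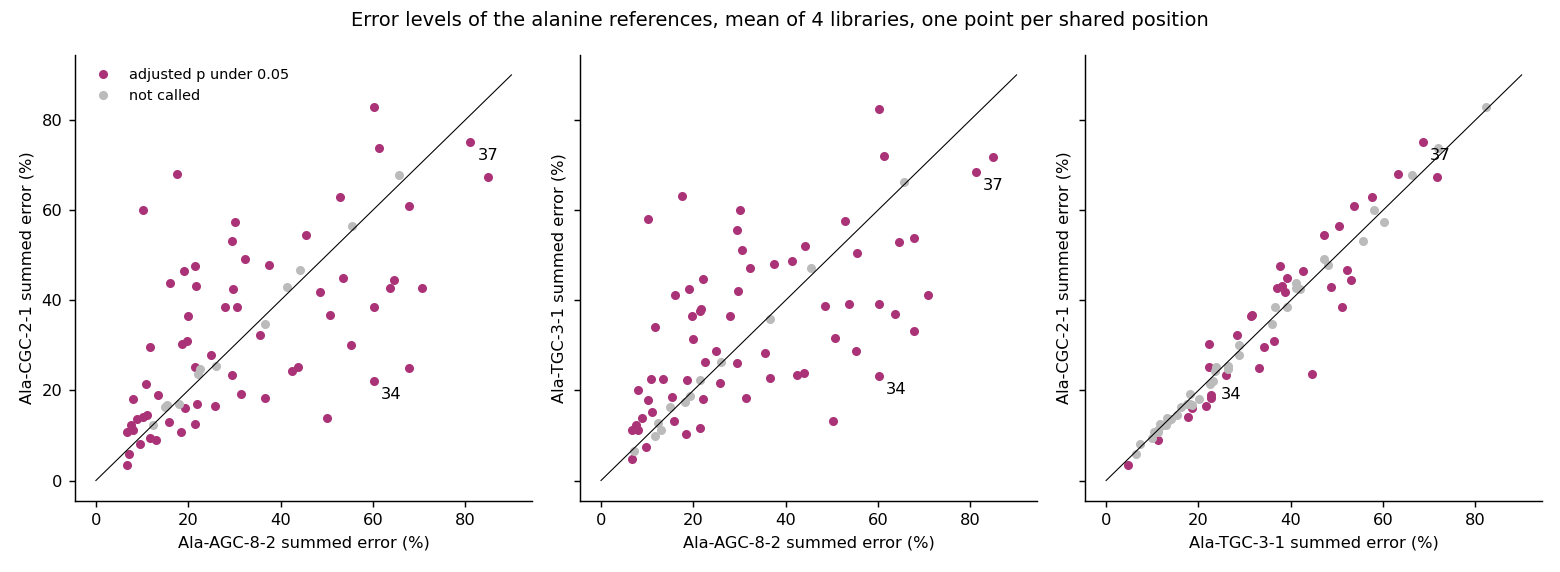
Summed error in percent, mean of 4 libraries, of one alanine reference against another, with a point for each of 75 shared positions and a line of equality; purple marks positions with adjusted p under 0.05. Positions scatter widely where Ala-AGC-8-2 is on the horizontal axis (r of 0.637 and 0.634) and follow the line for Ala-CGC-2-1 against Ala-TGC-3-1 (r of 0.970), and position 34 is higher in Ala-AGC-8-2.

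At position 34 the level set Ala-AGC-8-2 apart. The anticodons of these references start with different bases at position 34. A difference in level there therefore cannot be assigned to inosine, and its p-value is no test of the modification. The summed error there was 22.04% for Ala-CGC-2-1 and 23.2% for Ala-TGC-3-1, against 60.1% in Ala-AGC-8-2, differences of -38.1 points (limma adjusted p = 3.24e-10) and -36.9 points (limma adjusted p = 2.03e-10). Mismatches made up most of it, with 9.13% for Ala-CGC-2-1 and 15.3% for Ala-TGC-3-1, against 41.4% in Ala-AGC-8-2 (limma adjusted p = 1.1e-08 and 1.2e-08). Deletions were 8.06% and 5.84%, against 17.6%, and insertions were higher in Ala-CGC-2-1, with 4.85% against 1.12% in Ala-AGC-8-2. Ala-CGC-2-1 and Ala-TGC-3-1 were not shown to differ in the sum (-1.15 points, limma adjusted p = 0.362), though Ala-CGC-2-1 had fewer mismatches (-6.15 points, limma adjusted p = 1.28e-05). In every library Ala-AGC-8-2 was above the other alanine references at this position.

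Position 37, methylated inosine in alanine tRNA, had the same order in every library, with Ala-AGC-8-2 highest, Ala-CGC-2-1 next and Ala-TGC-3-1 lowest. The summed error was 75.2% for Ala-CGC-2-1 and 68.6% for Ala-TGC-3-1, against 81.1% in Ala-AGC-8-2, differences of -5.96 points (limma adjusted p = 0.0002) and -12.6 points (limma adjusted p = 1.22e-06), and Ala-CGC-2-1 minus Ala-TGC-3-1 was 6.61 points (limma adjusted p = 0.000114). The kinds of error ran in opposite directions. Deletions were 37.6% and 32.8%, against 49.1% in Ala-AGC-8-2, and mismatches were 33.8% and 31.7%, against 25.3% in Ala-AGC-8-2, each past the test. At position 26 mismatches were 41.6% for Ala-CGC-2-1 and 30.5% for Ala-TGC-3-1, against 58.1% in Ala-AGC-8-2, and deletions were 18.6% and 22.2%, against 8.80%, again each past the test. Within the WT libraries alone, mismatches at position 26 were 37.7% ± 2.49 for Ala-CGC-2-1 and 28.6% ± 0.224 for Ala-TGC-3-1, against 57.98% ± 0.128 in Ala-AGC-8-2 (SD, n = 2).

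Other positions, named after their values were seen, also differed in level. Positions 40 and 60 differed by more than position 34 in both comparisons with Ala-AGC-8-2. Position 29 did so for Ala-CGC-2-1 and position 48, narrowly, for Ala-TGC-3-1. At position 40, in the anticodon stem, the summed error was 68.04% for Ala-CGC-2-1 and 63.1% for Ala-TGC-3-1, against 17.6% in Ala-AGC-8-2, differences of 50.5 points (limma adjusted p = 5.08e-11) and 45.5 points (limma adjusted p = 9.56e-11). At position 60, in the T loop, it was 59.95% and 58.04%, against 10.1% in Ala-AGC-8-2, and at position 54, the site of ribothymidine made by TRMT2A, 43.8% and 41.1%, against 16.1%. At position 55 mismatches were 68.9% and 70.5%, against 33.2% in Ala-AGC-8-2. Some were lower in Ala-CGC-2-1 and Ala-TGC-3-1. Position 29 had 24.9% and 33.2%, against 67.7% in Ala-AGC-8-2, position 48, a site of 5-methylcytidine made by NSUN2, had 13.9% and 13.2%, against 50.2%, and position 46 had 42.7% and 41.1%, against 70.7%. The limma adjusted p of all of these was at most 4.35e-09. Between Ala-CGC-2-1 and Ala-TGC-3-1 the largest difference was at position 31, 23.7% for Ala-CGC-2-1 and 44.7% for Ala-TGC-3-1, a difference of -20.9 points (limma adjusted p = 1.12e-09), followed by position 5, 38.4% and 51.1% (-12.7 points, limma adjusted p = 3.47e-07). Position 31 is also among the positions whose deletions rose in Ala-TGC-3-1 but were not called in Ala-CGC-2-1.

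The 3' adaptor, ligated to every tRNA, served as a reading of the same libraries outside the tRNA. Its summed error, over 15 nucleotides, averaged 22.3% and 24.8% in the TRMT1L KO libraries and 26.7% and 23.2% in the WT libraries for Ala-CGC-2-1, and 23.4% and 25.2% in the TRMT1L KO libraries and 26.6% and 23.6% in the WT libraries for Ala-TGC-3-1. For Ala-AGC-8-2, over 14 nucleotides, it averaged 19.98% and 21.7% in the TRMT1L KO libraries and 22.9% and 20.5% in the WT libraries. WT replicate 1 was highest in each, and the genotypes overlapped. In limma's test 0 of the 44 alanine adaptor nucleotides were called, as were 0% of 599 over all references (lowest adjusted p = 0.993), and an unadjusted p under 0.05 was reached by 0 of the alanine nucleotides and by 7 of 599 (1.17%). The differences there ran from -5.20 to 1.19 points for Ala-CGC-2-1, -3.77 to 0.795 for Ala-TGC-3-1 and -2.98 to 1.48 for Ala-AGC-8-2.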

How the data were processed

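Nano-tRNAseq libraries of purified tRNA were compared between 2 TRMT1L KO and 2 WT samples, grouped by the genotype in the labels. Per the file headers, the authors deposited mismatch, insertion and deletion rates as a fraction from 0 to 1, in 12 sheets with 48 references in rows and 90 nucleotides in columns, and a sheet of canonical positions. BWA, bedtools and SAMtools are named in the submitters' processing notes, without a role or version. The base caller, the settings, the genome build and the depth are not given in the sources used, so values were not weighted by depth.

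The arcsine square root of each rate went into limma 3.58.1 (R 4.3.3, trend and robust settings, Benjamini-Hochberg over 3621 positions). For levels between references, limma was run on differences within each of 4 libraries, adjusted over all other references and shared positions. The fits were also run on simulated data, but no rate of recovered or false calls is given here. Positions 20, 22, 26, 27, 34 and 37 were named in all 3 alanine references, with every called alanine position (up to 10 per kind of error) and the largest change of each structural region. Members, lists and rules were chosen with earlier results of these data known. Deviations of same-numbered replicates correlated at -0.251 over 3621 positions, so same-numbered libraries were not treated as pairs. A negative value does not show that the libraries are unpaired. The main fit holds no block, and a crossed pairing was tried as a further setting. Other settings tried were the transformation, the trend, a minimum rate of 0.02, leaving out the tRNA ends, centring, replicate blocks, leaving out each library and leaving out insertions.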

Additional observations from a re-analysis of the deposited data

How the results depend on the processing

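Of 138 counts of calls under other settings, 113 stayed within 1.5 times the main count, or stayed at 0 where the main count was 0. The main count was 0 for insertions, for higher mismatches and for the adaptor, so the 113 include counts that had no call to lose. Of 378 values of single positions, 325 had the same sign and the same call, 37 were no longer called, 1 became called, and 15 changed sign without being called. Centring each library on its median left 0 higher calls in the sum and 0 in deletions, and leaving out insertions left 0 higher in the sum. Without trend and robust settings 1 deletion increase passed, and without the tRNA ends 8 mismatch decreases did. The replicate block gave 0 higher calls in the sum and 7 mismatch decreases. A crossed replicate block, chosen after seeing the data, gave 8 lower and 8 higher calls in the sum, 9 lower and 1 higher in mismatches, 2 lower and 0 higher in deletions and 2 lower in insertions. Leaving out each library in turn, so that the spread of the remaining single library was taken from the other genotype, gave 4 to 8 lower and 0 to 3 higher calls in the sum, 1 to 5 lower and 0 to 1 higher in mismatches, and 4 to 5 lower and 1 to 2 higher in deletions. Level differences then numbered 58 to 62, 61 to 63 and 27 to 31. The sign changed in Ala-AGC-8-2 at position 20 (-3.05 to 1.44 points when each library was left out), 22 (-0.378 to 0.340, and 0.581 without insertions), 26 (-0.678 with centring), 27 (-2.46 to 1.26) and 37 (-0.388 to 1.01, and -0.956 with centring). In Ala-CGC-2-1 it changed at position 27 (-2.93 to 0.268 when each library was left out), 34 (-0.0340 with centring) and 37 (-0.877 to 0.775, and 0.0944 without insertions). The cause of these moves was not tested. Depth, which is unknown, and 2 libraries per genotype limit every value.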
